A study of Drosophila melanogaster with 16 samples.

Results

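The 10 genes described here encode enzymes of glycolysis in Drosophila melanogaster: Hex-A, Pgi, Pfk, Ald1, Tpi, Gapdh1, Gapdh2, Pgk, Eno and Pyk. They were chosen by name, and every exon entry of these genes in the count files was taken, which gave 78 of 87508 entries and 10 of 17753 genes. After 4 repeated entries were dropped, 74 distinct exon intervals remained. Nested exons share reads, so the intervals of a gene are not independent.

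The libraries came from the heads of male and female flies at 10 to 12 days after eclosion, with about 1000 sex-sorted flies behind each. All flies carried UAS-Gal4, UAS-GFP::RpL10A and fru P1-Gal4 in a w background, so the GFP-tagged ribosomal protein was expressed where the fru P1 promoter is active, and no group lacked the transgenes. Translating ribosome affinity purification (TRAP) recovers mRNA on the tagged ribosomes, and total mRNA is the lysate before purification. Each of the 4 groups (TRAP and total mRNA, in either sex) had 4 libraries. The comparisons address which transcripts are over- or under-represented on ribosomes of fru P1-expressing cells relative to the head, and whether the sexes differ.

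Glycolysis splits glucose to pyruvate in the cytosol. Hexokinase (Hex-A), phosphoglucose isomerase (Pgi) and phosphofructokinase (Pfk) prepare the sugar, aldolase (Ald1) and triose phosphate isomerase (Tpi) yield 3-carbon units, and Gapdh, phosphoglycerate kinase (Pgk), enolase (Eno) and pyruvate kinase (Pyk) recover ATP and NADH. In the fly nervous system glia are known as strongly glycolytic cells that supply neurons with products of the pathway. Gapdh1 and Gapdh2 are paralogs with closely similar proteins, and reads that could map to either were not counted, so their levels are less certain than those of single genes.

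Library totals ran from 15353672 to 25419045 counts. The purification was checked with marker lists: 11 of 12 neuron marker genes were higher in male TRAP and 12 of 12 in female TRAP, all 9 tested glia markers in males and all 8 in females were lower, and of 12 photoreceptor markers 11 were lower and 1 higher in males and 10 lower and 1 higher in females. Of the muscle markers 6 of 9 were lower in males, and 7 of 10 were lower and 1 higher in females. Of 7 fat body markers 4 were lower in males and all 7 in females. Levels are given as CPM, the reads of an exon scaled to the effective size of its library. Summed glia markers lay at 716 to 783 CPM in male total mRNA and at 192 to 360 in male TRAP, and in females at 574 to 637 and 149 to 236, and none of the 9 was at 0 in any group. Photoreceptor sums were 20778 to 25473 against 5654 to 10550 in males and 16054 to 19814 against 3704 to 5937 in females. Fat body sums were 1637 to 2292 against 531 to 1724 in males and 51717 to 69222 against 9812 to 17917 in females. The exon of fru with the highest level stood at 23.6 ± 1.38 CPM in male total mRNA and 43.9 ± 6.31 in male TRAP, and at 24.2 ± 1.61 and 56.7 ± 7.25 in females (SD, n = 4). Fewer cells of a type and less RNA per cell cannot be told apart in these bulk samples, and the part of these shifts in the glycolysis results was not tested.

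Each gene is first described by 1 representative exon, the tested exon with the highest mean level. Differences are log2 fold changes from edgeR's exact test with Benjamini-Hochberg adjustment over all exons, called at a false discovery rate (FDR) under 0.2. Coordinates are those of the dm6 build. Standard errors come from the quasi-likelihood fit. Of the 74 intervals, 50 passed the filter on low counts and 24 did not.

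Per kilobase of exon, Pyk and Eno had the highest means in all 4 groups, with 378 ± 28.2 and 334 ± 8.72 CPM per kilobase in male total mRNA and 309 ± 45.0 and 303 ± 46.1 in female TRAP. Hex-A and Pfk, which encode kinases of the early steps, were the least abundant, with 80.2 ± 13.8 and 73.3 ± 5.97 in male total mRNA. Pgk held rank 8 of the 10 in every group. In male total mRNA the ranges of Tpi and Pgi overlapped each other and those of Pyk and Eno. The range of Ald1 overlapped those of Tpi, Pgi, Gapdh1 and Gapdh2, and Pgi also overlapped Gapdh1. Hex-A overlapped Pfk, whereas Pgk at 126 to 146 stood clear of Gapdh2 above it and Hex-A below it. In female TRAP the ranges of Gapdh2, Ald1 and Tpi overlapped those of Pyk and Eno. Gapdh2 moved from rank 7 in male total mRNA to rank 3 in male TRAP, while Gapdh1 went from rank 6 to rank 7. Levels rest on 1 exon a gene, so those of genes with different exon structures are approximate.

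**Figure D1:**
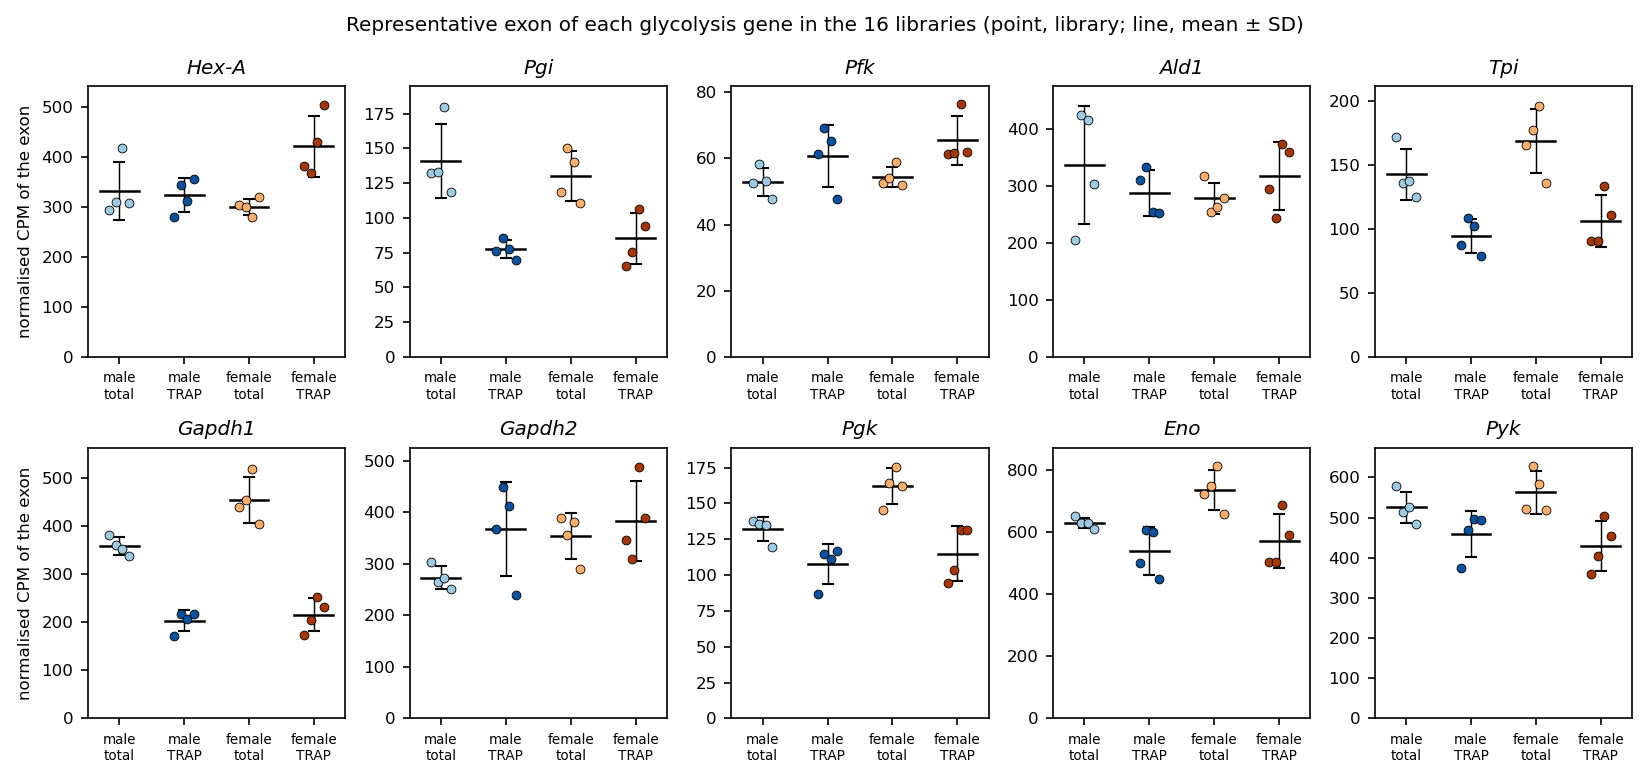
Normalised CPM of the representative exon of each gene (y axis) in the 4 groups (x axis), with 1 point a library, a line at the mean and bars of 1 SD. Gapdh1 is lower in TRAP than in total mRNA without overlap in both sexes, Pgi and Tpi are lower in both, and Hex-A is higher in female TRAP than in any female total mRNA library.

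In male TRAP against male total mRNA, 1 of the 10 genes was higher at its representative exon (Gapdh2), 3 were lower (Pgi, Tpi and Gapdh1) and 6 were not called. The call of Gapdh2 had an unadjusted edgeR p not under 0.05, which this FDR allows where many exons are called. Over all genes with 1 exon each, 38.1% were higher and 30.5% lower. In female TRAP against female total mRNA, 3 were higher (Hex-A, Pfk and Ald1), 6 were lower (Pgi, Tpi, Gapdh1, Pgk, Eno and Pyk) and Gapdh2 was not called, beside 52.3% and 31.4% of all genes. By summed exons 6 genes were lower in each sex (Pgi, Ald1, Tpi, Gapdh1, Pgk and Eno), beside 34.8% of all genes in males and 38.8% in females, and 1 was higher (Gapdh2 in males and Hex-A in females), beside 38.9% and 43.9%. The median over the 10 representative exons was -0.23 in males and -0.28 in females, and over all tested genes it was 0.14 and 0.33. A scaling by library totals alone moved the median of all exons from 0.04 to 0.34 in males and from 0.06 to 0.46 in females, and several values below moved with it.

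**Figure D2:**
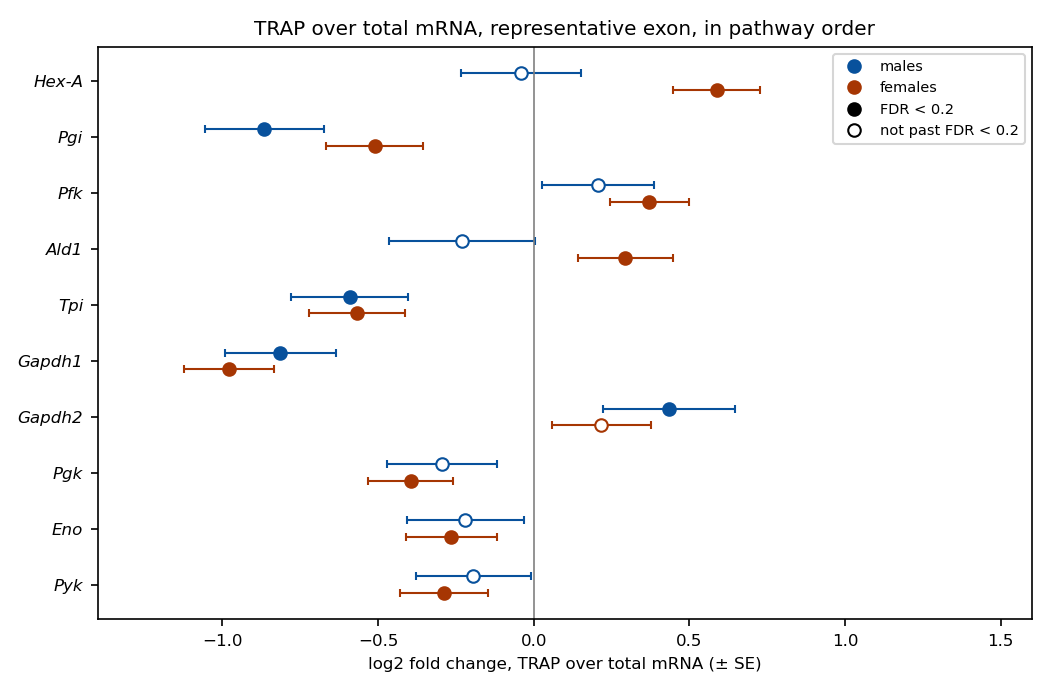
Log2 fold change of TRAP over total mRNA (x axis, ± SE) for the representative exon of each gene in the order of the pathway (y axis), males in blue and females in brown, filled where the FDR is under 0.2. Pgi, Tpi and Gapdh1 lie left of 0 with filled points in both sexes, and Hex-A, Pfk and Ald1 lie right of 0 with filled points in females.

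Hex-A (FBgn0001186), the hexokinase that phosphorylates glucose, had its exon on X (9585675 to 9589813, the whole transcript in 1 exon). In male total mRNA it stood at 294, 309, 417 and 307 CPM, and in male TRAP at 281, 344, 312 and 357. In female total mRNA the libraries had 304, 299, 281 and 319 CPM, and in female TRAP 383, 367, 430 and 505. The male groups overlapped, and every female TRAP library was above every female total mRNA library. The difference was -0.04 ± 0.19 in males (edgeR FDR 0.891) and 0.59 ± 0.14 in females (FDR 0.000219). The fold in females was 0.50 to 0.63 with any one library left out.

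Pgi (FBgn0003074), which turns glucose 6-phosphate into fructose 6-phosphate, is on the minus strand of 2R, with its last exon at 8910900 to 8911370. That exon had 132, 133, 180 and 118 CPM in male total mRNA and 76.4, 85.7, 77.9 and 70.0 in male TRAP. Female total mRNA had 119, 150, 140 and 111 CPM and female TRAP had 65.3, 75.3, 106 and 94.4. TRAP was below total mRNA without overlap in both sexes. It was lower by -0.86 ± 0.19 in males (edgeR FDR 0.000142) and by -0.51 ± 0.16 in females (FDR 0.00577). Scaled by library totals alone the value for Pgi in females was -0.12, which no longer passed (FDR 0.484), and without the filter on low counts it was -0.31 (FDR 0.227).

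Pfk (FBgn0003071), which catalyses the committed step, had its longest 3′ exon at 2R 10116737 to 10117457. It had 52.5, 58.2, 53.1 and 47.7 CPM in male total mRNA and 61.4, 69.1, 65.3 and 47.6 in male TRAP. Female total mRNA had 52.6, 54.2, 58.9 and 52.1 CPM, and female TRAP had 61.5, 61.7, 76.6 and 62.1. One male TRAP library lay at the bottom of the total mRNA range, whereas the female groups did not overlap. The difference was 0.21 ± 0.18 in males (edgeR FDR 0.406) and 0.37 ± 0.13 in females (FDR 0.0186). In males Pfk was called when scaled by library totals alone (0.50, FDR 0.0189) and without male TRAP replicate 5 (0.30, FDR 0.141). In its longest coding exon the female value for Pfk was 0.01, and over the summed exons it was -0.09, neither called, and the only Pfk intervals called higher were the 2 nested last exons.

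Ald1 (FBgn0000064), the aldolase, is on the minus strand of 3R. Its longest 3′ exon, 26254069 to 26255431, had 204, 424, 416 and 303 CPM in male total mRNA and 310, 334, 254 and 253 in male TRAP. In females it had 317, 254, 262 and 279 in total mRNA and 295, 243, 373 and 360 in TRAP. Groups overlapped in both sexes, and male total mRNA replicate 1 was the lowest of all 16 libraries. The difference was -0.23 ± 0.23 in males (edgeR FDR 0.459) and 0.29 ± 0.15 in females (FDR 0.105). The female call was lost without female total mRNA replicate 3 or 4 or female TRAP replicate 4 or 5 (FDR 0.275 to 0.328). It was also lost with RLE scaling (FDR 0.205) and in the fit over 16 libraries (FDR 0.426). Over the summed exons of Ald1 the direction in females turned to -0.33 (FDR 0.0169), and in its longest coding exon to -0.17 (FDR 0.384). In males the summed exons of Ald1 were lower (-0.48, FDR 0.00113), as was the longest coding exon (-0.47, FDR 0.0389), and without male total mRNA replicate 1 the representative exon was called (-0.43, FDR 0.103).

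Tpi (FBgn0086355), which interconverts the triose phosphates, had its last exon at 3R 30132981 to 30133448. It had 172, 136, 138 and 125 CPM in male total mRNA and 87.6, 109, 102 and 79.0 in male TRAP, and 166, 178, 196 and 136 in female total mRNA and 90.4, 90.3, 134 and 111 in female TRAP. No TRAP library reached the lowest total mRNA library of its sex. It was lower by -0.59 ± 0.19 in males (edgeR FDR 0.0096) and by -0.57 ± 0.15 in females (FDR 0.00177). Scaled by library totals alone, the female value for Tpi was -0.17 and did not pass (FDR 0.288).

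Gapdh1 and Gapdh2 encode the enzyme that oxidises glyceraldehyde 3-phosphate. Gapdh1 (FBgn0001091, 2R, minus strand, 7791901 to 7793380) had 382, 361, 352 and 337 CPM in male total mRNA and 172, 217, 207 and 218 in male TRAP. In females it had 441, 455, 520 and 405 CPM in total mRNA and 173, 204, 253 and 232 in TRAP. Gapdh1 was lower in TRAP by -0.81 ± 0.18 in males (edgeR FDR 0.000112) and by -0.98 ± 0.14 in females (FDR 2.37e-09), which was the lowest representative value of the 10 genes in females. Gapdh2 (FBgn0001092, X, 15868318 to 15869661) had 303, 264, 272 and 251 CPM in male total mRNA and 367, 449, 413 and 240 in male TRAP. In females it had 390, 356, 381 and 289 in total mRNA and 347, 309, 488 and 389 in TRAP. The groups of Gapdh2 overlapped in both sexes. Its difference was 0.43 ± 0.21 in males (edgeR FDR 0.0974) and 0.22 ± 0.16 in females (FDR 0.253, and 0.119 with a value of 0.21 when the replicate number was a block). In females Gapdh2 was also called without the filter on low counts (0.42, FDR 0.0786), scaled by library totals alone (0.61, FDR 0.000182) and without female TRAP replicate 3 (0.28, FDR 0.172). The male call of Gapdh2 was lost without male total mRNA replicate 2 or 4 or male TRAP replicate 2 or 4 (FDR 0.212 to 0.290).

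Because both genes are measured in the same library, the share of Gapdh2 in reads per base of the pair does not depend on scaling. It was 46.7%, 44.6%, 46.0% and 45.1% in male total mRNA and 70.1%, 69.5%, 68.7% and 54.8% in male TRAP. In females it was 49.3%, 46.2%, 44.7% and 44.0% in total mRNA and 68.8%, 62.5%, 68.0% and 64.8% in TRAP. Every TRAP library was above every total mRNA library, and the smallest of the TRAP values came from male TRAP replicate 5. Means rose by 20.2 percentage points in males, from 45.6% ± 0.902 to 65.8% ± 7.33, and by 19.98 in females, from 46.1% ± 2.37 to 66.0% ± 2.90 (SD, n = 4). Each gave an exact two-sided permutation p of 0.0286, the smallest that 4 against 4 allows, and 0.098 after adjustment over 24 tests of 6 such shares. The shares were chosen after values had been seen. The sexes differed by -0.25 points in TRAP (exact permutation p = 0.971) and by -0.47 points in total mRNA (exact permutation p = 0.8).

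Pgk, Eno and Pyk act in the last steps. Pgk (FBgn0250906, 2L, minus strand, exon 2747311 to 2748255) had 138, 136, 135 and 119 CPM in male total mRNA against 86.8, 114.6, 112 and 117 in male TRAP, and 146, 164, 176 and 162 in female total mRNA against 94.2, 103, 131 and 131 in female TRAP. TRAP lay below total mRNA without overlap in both sexes. The difference of Pgk was -0.29 ± 0.18 in males, just short of a call (edgeR FDR 0.206), and -0.40 ± 0.14 in females (FDR 0.0167). In males Pgk was called by the quasi-likelihood test (FDR 0.189), by DESeq2 (adjusted p = 0.124), with RLE scaling (FDR 0.196), with CPM above 2 in all libraries (FDR 0.167), in the fit over 16 libraries (FDR 0.110) and over its summed exons (FDR 0.0643). In females the call was lost when scaled by library totals alone (-0.0014, FDR 0.995) and without the filter on low counts (-0.20, FDR 0.463). Eno (FBgn0000579, 2L, minus strand, last exon 1724768 to 1726655) had 652, 632, 629 and 612 CPM in male total mRNA against 502, 609, 602 and 450 in male TRAP, and 724, 750, 814 and 659 in female total mRNA against 504, 504, 687 and 590 in female TRAP. The male groups of Eno did not overlap, and the female groups did. The difference was -0.22 ± 0.19 in males (edgeR FDR 0.373) and -0.26 ± 0.15 in females (FDR 0.113). The female call of Eno was lost without female TRAP replicate 2, 3 or 5 (FDR 0.215 to 0.280) and without the filter on low counts (-0.07, FDR 0.881), and scaled by library totals alone the value turned to 0.13 (FDR 0.367). In males the summed exons of Eno gave -0.25 (FDR 0.148).

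Pyk (FBgn0267385), which makes pyruvate, has its main coding exon at 3R 22370778 to 22372167, with 578, 513, 525 and 484 CPM in male total mRNA against 375, 469, 495 and 494 in male TRAP. For females the values were 521, 629, 583 and 518 in total mRNA against 359, 403, 504 and 453 in TRAP. Only the female groups stood apart. The difference of Pyk was -0.19 ± 0.19 in males (edgeR FDR 0.434) and -0.29 ± 0.14 in females (FDR 0.0821). The female call was lost without female TRAP replicate 2 (FDR 0.262), over the summed exons of Pyk (-0.07, FDR 0.674) and without the filter on low counts (-0.09, FDR 0.798), and scaled by library totals alone the value turned to 0.11 (FDR 0.466).

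Over the 50 tested exon intervals, male TRAP had 3 higher and 32 lower than total mRNA (6.0% and 64.0%), beside 31.4% and 29.5% of all exons. In females 10 of 50 were higher and 34 lower, beside 40.7% and 36.9%. An unadjusted edgeR p under 0.05 was held by 30 of the 50 in males and by 39 in females. The share of all exons at that p was not computed, so some calls rest on a larger p. All 8 intervals of Pgi and all 3 of Tpi were lower in both sexes, and 9 of 10 intervals of Ald1 were lower in males. In 26 of the 50 intervals the male TRAP libraries all lay below the total mRNA libraries and in 0 of the 50 above, beside 19.6% and 18.9% of all exons. In females these counts were 32 of 50 and 3 of 50, beside 32.1% and 27.7% of all exons.

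Exons of 1 gene did not move alike. Across 4459 genes with 3 or more tested exons, the difference between TRAP and total mRNA was larger at the 3′-most exon in 64.7% of genes in males, by a median of 0.17, and in females in 81.3% of 4131 genes, by a median of 0.48. In 6 of the 7 glycolysis genes with such exons the 3′ exon was likewise higher. This difference was 0.25 in males and 1.201 in females for Pgi, 1.02 and 1.24 for Pfk, 0.41 and 1.26 for Ald1, 0.99 and 2.07 for Pyk, and -0.71 and -1.05 for Eno. The 5′ exon taken for Eno, 1729275 to 1729636, overlaps Rrp40 on the other strand, so its reads cannot be assigned to Eno alone. With any one library left out, the coding exon of Eno near its start stayed at -0.92 to -0.78 in males and -1.66 to -1.37 in females. The last exon of Eno stayed at -0.28 to -0.15 and -0.36 to -0.21, which is the general direction. Where a 5′ exon is compared with a 3′ exon below, this general tilt is part of the value.

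**Figure D3:**
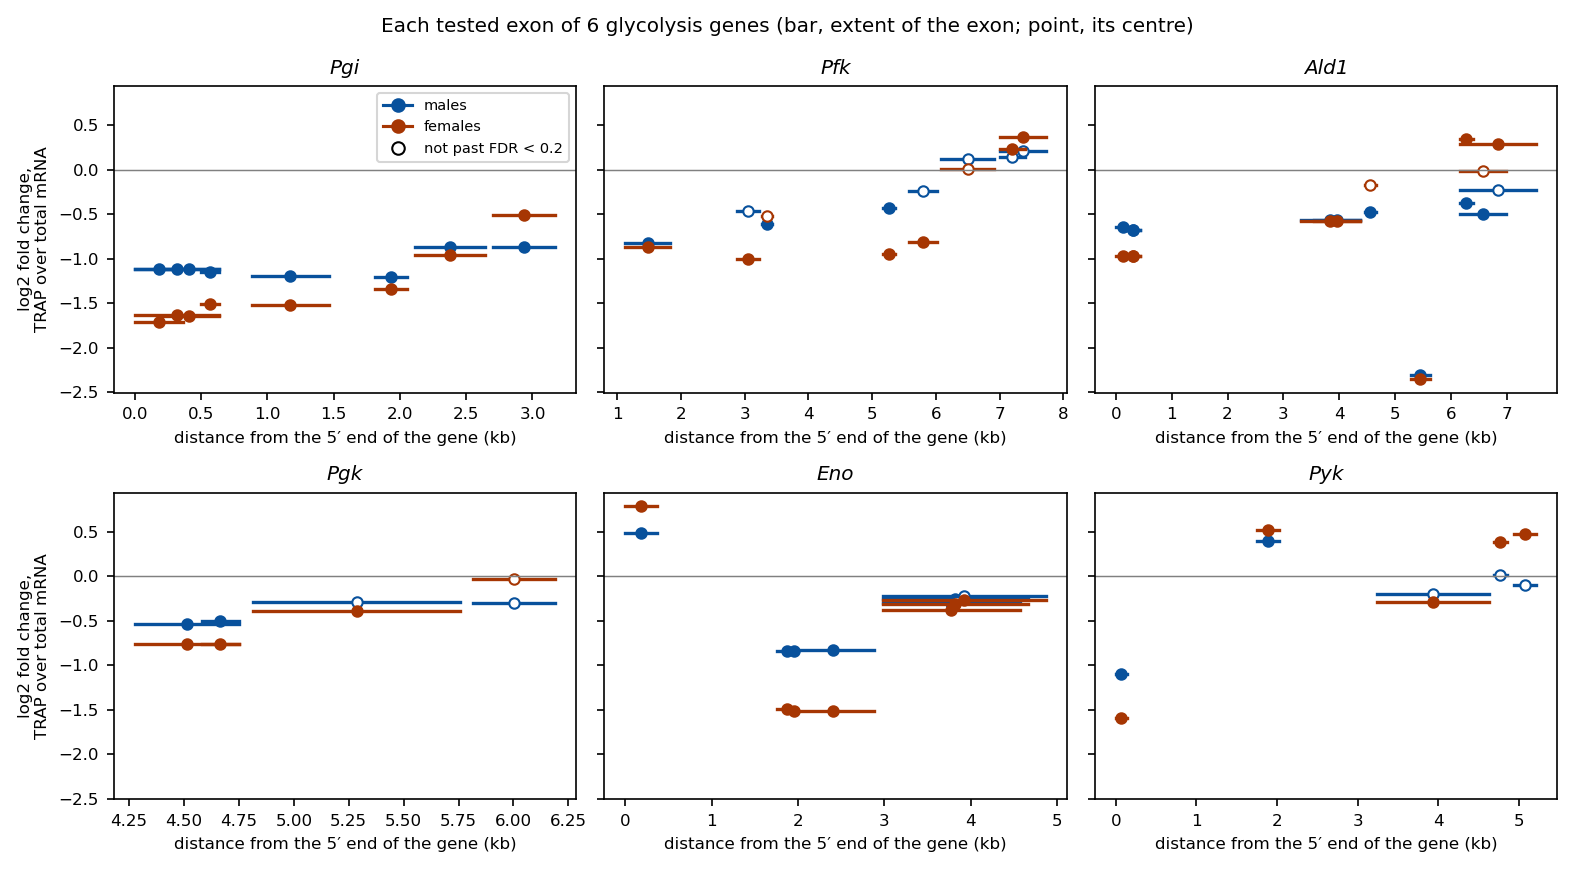
Log2 fold change of TRAP over total mRNA (y axis) for each tested exon of 6 genes against distance from the 5′ end of the gene (x axis, kb), males in blue and females in brown, open where the FDR is not under 0.2. The middle 3′ exon of Ald1 lies at -2.31 and -2.35, far below its neighbours, and the upstream first exon of Pyk lies at -1.10 and -1.59.

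Exon usage was tested as the change of an exon relative to the other distinct intervals of its gene (edgeR's diffSpliceDGE). In males 3 of 49 intervals were called, all lower, beside 2.87% of all exons, and in females 24 of 49, of which 19 were lower and 5 higher, beside 17.1%.

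The lowest fold change of any glycolysis exon was that of an alternative last exon of Ald1 at 3R 26255966 to 26256307, here called the middle 3′ end. It lies upstream of the distal 3′ ends and gives the aldolase another carboxy terminus. It had 84.2, 66.2, 66.5 and 75.2 CPM in male total mRNA and 14.5, 13.9, 10.9 and 19.7 in male TRAP. The female libraries had 83.5, 86.5, 97.3 and 71.6 in total mRNA and 8.1, 20.4, 17.1 and 16.8 in TRAP. The groups were far apart in both sexes. The middle 3′ end of Ald1 was lower by -2.31 ± 0.20 in males (edgeR FDR 1.72e-24) and by -2.35 ± 0.22 in females (FDR 9.9e-22), and its usage was lower by -1.26 (FDR 8.78e-10) and -1.47 (FDR 3.83e-14). The shortest distal 3′ end, 26255204 to 26255431, had a male difference of -0.37 ± 0.19 (FDR 0.12) and a female one of 0.34 ± 0.16 (FDR 0.0756). With any one library left out the middle 3′ end stayed between -2.53 and -2.12 over both sexes. Another coding end of Ald1, at 26256474 to 26256623 and spliced to the middle exon, had 7 to 40 reads in each library and was not tested.

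As a share of reads per base over the middle and distal 3′ ends, the middle end was 32.3%, 23.0%, 21.4% and 29.5% in male total mRNA and 8.66%, 7.19%, 7.15% and 10.9% in male TRAP. In females it was 32.6%, 36.3%, 38.3% and 32.7% in total mRNA and 5.58%, 12.0%, 7.15% and 6.59% in TRAP. The share of the Ald1 middle end thus dropped by 18.1 points in males and dropped by 27.2 points in females, each without overlap (exact two-sided permutation p = 0.0286, adjusted 0.098). In total mRNA it was lower in every male library than in every female library, at 26.6% ± 5.22 against 34.98% ± 2.81, and in TRAP the sexes overlapped, at 8.47% ± 1.74 and 7.83% ± 2.85 (exact permutation p = 0.629). Each share rested on 2246 to 4963 reads. The exon was picked for its low fold change in these same libraries, so the p for the drop in its share is no separate test.

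Pyk has an upstream first exon that is untranslated (3R 22367536 to 22367668) and a downstream first exon that holds a start of translation (22369282 to 22369565). The upstream exon had 14.4, 11.3, 15.8 and 16.9 CPM in male total mRNA and 5.6, 6.1, 5.8 and 9.8 in male TRAP. Among females it had 19.4, 24.9, 20.1 and 20.2 in total mRNA and 4.1, 8.4, 7.2 and 6.5 in TRAP, so groups stood apart in both sexes. It was lower by -1.10 ± 0.22 in males (edgeR FDR 1.41e-05) and by -1.59 ± 0.19 in females (FDR 2.6e-13). The downstream first exon of Pyk was higher by 0.40 ± 0.24 in males (FDR 0.197) and by 0.52 ± 0.22 in females (FDR 0.0462), and its male call was lost in 6 of the 8 fits that left out a library. Usage of the upstream exon was lower by -0.67 in males (FDR 0.00474) and by -1.13 in females (FDR 2.03e-07).

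The share of the upstream first exon of Pyk in reads per base over both first exons was 74.5%, 80.0%, 88.6% and 86.0% in male total mRNA and 59.2%, 59.2%, 54.9% and 73.0% in male TRAP. In females it was 83.4%, 90.7%, 89.2% and 89.1% in total mRNA and 48.5%, 67.0%, 66.6% and 70.6% in TRAP. The share dropped by 20.7 points in males and dropped by 24.9 points in females without overlap (exact two-sided permutation p = 0.0286, adjusted 0.098), on 225 to 603 reads a library. This share too was chosen after values had been seen, so its p is no separate test of the drop. The highest male TRAP share was that of replicate 5. In that library the summed glia markers were 360 CPM against 192 to 233 in the other 3 male TRAP libraries, and the photoreceptor markers 10550 against 5654 to 7172, and their part in the result was not tested. Without it the male fold changes were -1.33 for the Pyk upstream exon, -2.48 for the Ald1 middle 3′ end and 0.58 for Gapdh2.

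**Figure D4:**
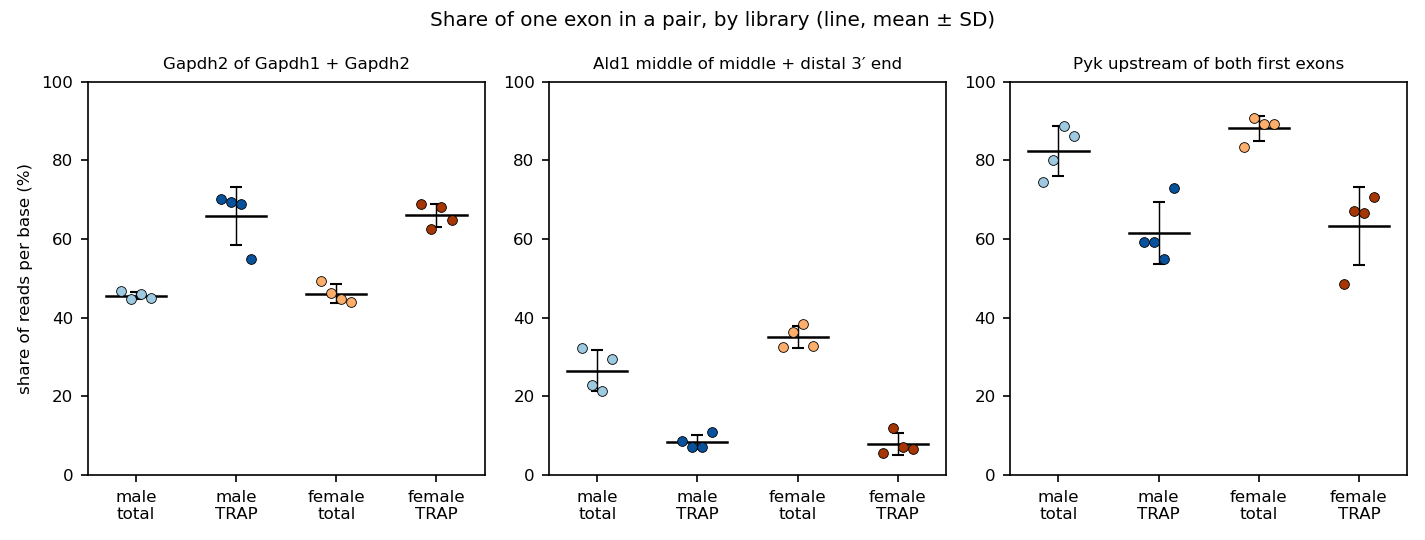
Share of reads per base (y axis, %) held by Gapdh2 in the Gapdh pair, by the middle 3′ end of Ald1 and by the upstream first exon of Pyk, in the 4 groups (x axis), with 1 point a library, a line at the mean and bars of 1 SD. In each panel the TRAP and total mRNA libraries of a sex do not overlap, and the sexes overlap in TRAP.

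Eno was lower in a coding exon near its start. The exon 2L 1727646 to 1727880, used by 4 transcripts, differed by -0.84 ± 0.20 in males (edgeR FDR 0.000574) and by -1.49 ± 0.23 in females (FDR 4.8e-09). Its usage change passed in females (usage FDR 7.7e-05) and not in males (usage FDR 0.458). An annotated first exon of another transcript, 1726753 to 1727717, overlaps it, and 179 of the 187 reads of that first exon in male total mRNA replicate 1 lay in the stretch 1727646 to 1727717, within the coding exon, so it gave no separate measure of that transcript. The exon of Eno that starts farthest upstream, 1729275 to 1729636, had 2.1, 3.3, 3.3 and 2.1 CPM in male total mRNA and 3.2, 4.6, 4.3 and 2.8 in male TRAP, with 2.0, 2.9, 3.1 and 3.7 in female total mRNA and 3.2, 3.5, 6.8 and 5.5 in female TRAP. It was higher by 0.49 ± 0.26 in males (edgeR FDR 0.147) and by 0.78 ± 0.27 in females (FDR 0.0106). This exon overlaps Rrp40 on the other strand, and the counting did not use strand, so its reads cannot be assigned to Eno alone.

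In Pfk the interval 2R 10110870 to 10111575, a first exon of 2 transcripts, was lower in TRAP. It contains an internal exon of 2 other transcripts (10111474 to 10111575), which held 65 of its 109 reads in male total mRNA replicate 1, so its values are not those of 1 transcript form. The interval had 2.7 to 4.6 CPM in male total mRNA against 1.9 to 3.0 in male TRAP, which overlapped, and 3.8 to 6.2 against 2.0 to 2.9 in females, which did not. The difference was -0.82 ± 0.25 in males (edgeR FDR 0.00609) and -0.87 ± 0.23 in females (FDR 0.00125). A first exon farther upstream, 10109740 to 10109885, was below the filter. It had 0, 5, 4 and 1 reads in male total mRNA and 28, 25, 23 and 10 in male TRAP, and 4, 5, 1 and 3 in female total mRNA and 11, 9, 13 and 16 in female TRAP, and the groups did not overlap in either sex, a description with no test. A later exon of the same transcripts, 10110232 to 10110547, had 0, 3, 4 and 3 reads in male total mRNA and 3, 8, 2 and 0 in male TRAP. In females it had 0, 0, 1 and 1 reads in total mRNA and 1, 0, 2 and 0 in TRAP. These groups overlapped, so more reads from the whole upstream form were not shown. Pfk also has 3 alternative coding exons of 109 bases, of which a transcript uses 1. All 3 were below the filter, with 37 to 113 reads over the 3 in a library. The second of them held 51.3% ± 3.35 in male total mRNA and 59.6% ± 11.1 in male TRAP, and 44.7% ± 7.66 and 60.8% ± 14.8 in females. No share of these Pfk exons differed between groups without overlap (smallest exact permutation p = 0.0857 for the second exon in females), and at this depth smaller shifts were not detectable.

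In Pgi the difference in females ran from -1.71 at the untranslated first exon (8913710 to 8914069, which overlaps 2 other first exons) to -0.51 at the last exon, and 6 of 8 intervals were called in usage. In males the Pgi range was -1.21 to -0.86 and no interval was called in usage. In Pgk the last exon, 2746880 to 2747252, overlaps Cwc25 on the other strand. It was not called in females (-0.03 ± 0.19, edgeR FDR 0.906), whereas the 5′ coding exon of Pgk, 2748320 to 2748792, was lower by -0.76 ± 0.15 (FDR 2.15e-05). The upstream first exons of Ald1 overlap the antisense gene asRNA:CR44321, and their reads likewise cannot be told apart by strand.

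The sexes were then compared. In male TRAP against female TRAP, 0 of 50 glycolysis intervals were called by the exact test, by edgeR's quasi-likelihood test and by DESeq2, beside 1.18% higher and 1.15% lower of all exons, and 2 had an unadjusted p under 0.05. Both were the nested exons of Hex-A, whose male TRAP libraries were all below the female ones (-0.36 ± 0.16, edgeR FDR 0.543, approximate 95% interval -0.68 to -0.03). Nonoverlap in this direction held for 1.82% of all exons, and the share of all exons at an unadjusted p under 0.05 was not computed. For the other 9 genes the representative value lay between -0.14 for Tpi and 0.12 for Pyk, and their 95% intervals reached from -0.46 to 0.45, so sex differences within these bounds cannot be told from none. Exon usage was called in 0 intervals, beside 0.0239%, and none of the 10 genes was called by its representative exon, beside 1.16% higher and 1.84% lower of all genes, or by its summed exons, beside 2.32% and 2.25%.

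In male total mRNA against female total mRNA, 1 of 50 intervals was higher and 6 were lower, beside 10.2% and 12.1% of all exons, and 0 of 10 representative exons were called, beside 13.6% and 10.7% of all genes. The male libraries lay all above the female ones in 1 of the 50 intervals and all below in 12 of the 50, beside 4.34% and 10.4% of all exons, and exon usage was called in 0, beside 0.0875%. The interval that was higher in males was the short distal 3′ end of Ald1 (0.44 ± 0.15, edgeR FDR 0.0729). Lower in males were both 5′ intervals of Tpi (-0.39 ± 0.14 each, FDR 0.098 and 0.101), the Eno exon 1726753 to 1727717 (-0.63 ± 0.18, FDR 0.0246) with the 2 intervals nested in or overlapping it, and the upstream first exon of Pyk (-0.48 ± 0.16, FDR 0.0628). For Gapdh1 and Gapdh2 the values were -0.29 ± 0.13 (FDR 0.228) and -0.32 ± 0.14 (FDR 0.205), and both passed over the summed exons (FDR 0.0322 and 0.0309). By summed exons 4 genes (Tpi, Gapdh1, Gapdh2 and Eno) were lower in males and 0 higher, beside 17.6% and 16.6% of all genes. Marker lists also moved in this comparison. Of 12 neuron markers 8 were higher in males and 0 lower (median 0.55), of 12 photoreceptor markers 6 were higher and 0 lower, and of 9 glia markers 3 were higher and 1 lower. Of 10 muscle markers 6 were lower and 1 higher, and of 7 fat body markers 5 were lower and 1 higher (median -3.65). Their part in the values of the glycolysis genes was not tested. Scaled by library totals alone, 13 intervals were higher and 0 lower, beside 14097 exons higher and 1835 lower of 31125 over all exons. Across all genes with 3 or more tested exons the 3′ exon was higher relative to the 5′ exon in males in 78.7% of genes in total mRNA and in 23.4% in TRAP.

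The difference between the sexes in the effect of purification was tested as an interaction over all 16 libraries. None of the 50 glycolysis intervals passed (0 at FDR under 0.2 by edgeR's quasi-likelihood test and by DESeq2), beside 0.0607% of all exons at that FDR. By the quasi-likelihood test 8 had an unadjusted p under 0.05, and the share of all exons at that p was not computed. They included the nested intervals of Hex-A and overlapping intervals of Eno, which share reads. The smallest p was that of the Pfk exon 10115315 to 10115757 (0.68 ± 0.21, edgeR FDR 0.492). For Hex-A, called in females and not in males, the interaction was -0.52 ± 0.23 (edgeR FDR 0.503), so a difference between the sexes in its purification effect was not shown.

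Genes around glycolysis were taken from lists of the neighbouring pathways, each gene by its representative exon, and the counts below stand beside 38.1% higher and 30.5% lower of all genes in males and 52.3% and 31.4% in females. Of the pentose phosphate pathway, which makes NADPH and ribose from glucose 6-phosphate, 6 of 6 tested genes were lower in TRAP in both sexes, with medians of -1.41 and -1.67. Taldo, a transaldolase, had -2.06 ± 0.24 in males (edgeR FDR 5.77e-15) and -2.16 ± 0.20 in females (FDR 1.64e-22), Pgls had -2.05 and -2.11, and Zw, the glucose 6-phosphate dehydrogenase that opens the pathway, had -1.54 and -1.81. These values were further below 0 than any representative exon of the 10 glycolysis genes.

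Of the genes of sugar entry and glycogen, 7 of 9 were lower and 2 higher in both sexes, with medians of -0.98 and -1.11. UGP, which makes UDP-glucose, had -1.78 in males and -1.83 in females, Tret1-1, a trehalose transporter, had -1.65 and -1.77, and Tps1, the trehalose synthase, had -1.08 and -1.33. The 2 that were higher, named after their values were seen, were Glut1, a glucose transporter (0.48 ± 0.19 and 0.80 ± 0.16), and GlyS, glycogen synthase (0.50 ± 0.20 and 0.38 ± 0.14).

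Of the genes around pyruvate and NADH, 7 of 13 fell and 1 rose in males, while in females 7 fell and 5 rose. Got2 and Got1, the mitochondrial and cytosolic aspartate aminotransferases, had -1.77 and -1.51 in males and -1.70 and -1.66 in females, Pdk, the kinase that inhibits pyruvate dehydrogenase, had -1.56 in males, and Mpc1, a subunit of the mitochondrial pyruvate carrier, had -1.61 in females. In the TCA cycle 4 of 15 rose and 5 fell in males, while in females 7 rose and 4 fell. Its median was -0.04 and -0.06, beside 0.14 and 0.33 over all genes, and SdhB, a subunit of succinate dehydrogenase, had 0.72 ± 0.21 and 0.94 ± 0.17. SdhD, of the same complex, had 0.96 in females, and Idh3g had -0.77. In males Scsalpha1 and Mdh2 had -0.50 each.

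Of other glycolysis genes and paralogs, 7 of 15 were tested in males, of which 1 rose and 4 fell, and 6 in females, of which 2 rose and 2 fell. Hex-C, another hexokinase, had -1.84 ± 0.24 in males and -1.86 ± 0.24 in females, in contrast to -0.04 and 0.59 for Hex-A. Pfrx, which makes the activator of Pfk, had -1.03 and -1.397. CG12229 had -1.10 ± 0.24 in males and CG11249 had 1.01 ± 0.33 in females, both at levels near the filter on low counts. CG12229 had 1.69 CPM in male TRAP against 3.63 in male total mRNA. CG11249 had 3.27 CPM in female TRAP against 1.73 in female total mRNA, and its groups overlapped. Among 7 regulators the male comparison had 1 higher and 2 lower, and the female comparison had 2 and 3. Sugarbabe (sug), a sugar-responsive transcription factor, had -1.86 and -1.94, tgo had 0.53 and 0.64, Mondo had -0.43 in males, and ERR, which drives glycolytic genes in fly larvae, had 0.75 ± 0.15 in females (edgeR FDR 3.13e-05).

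**Figure D5:**
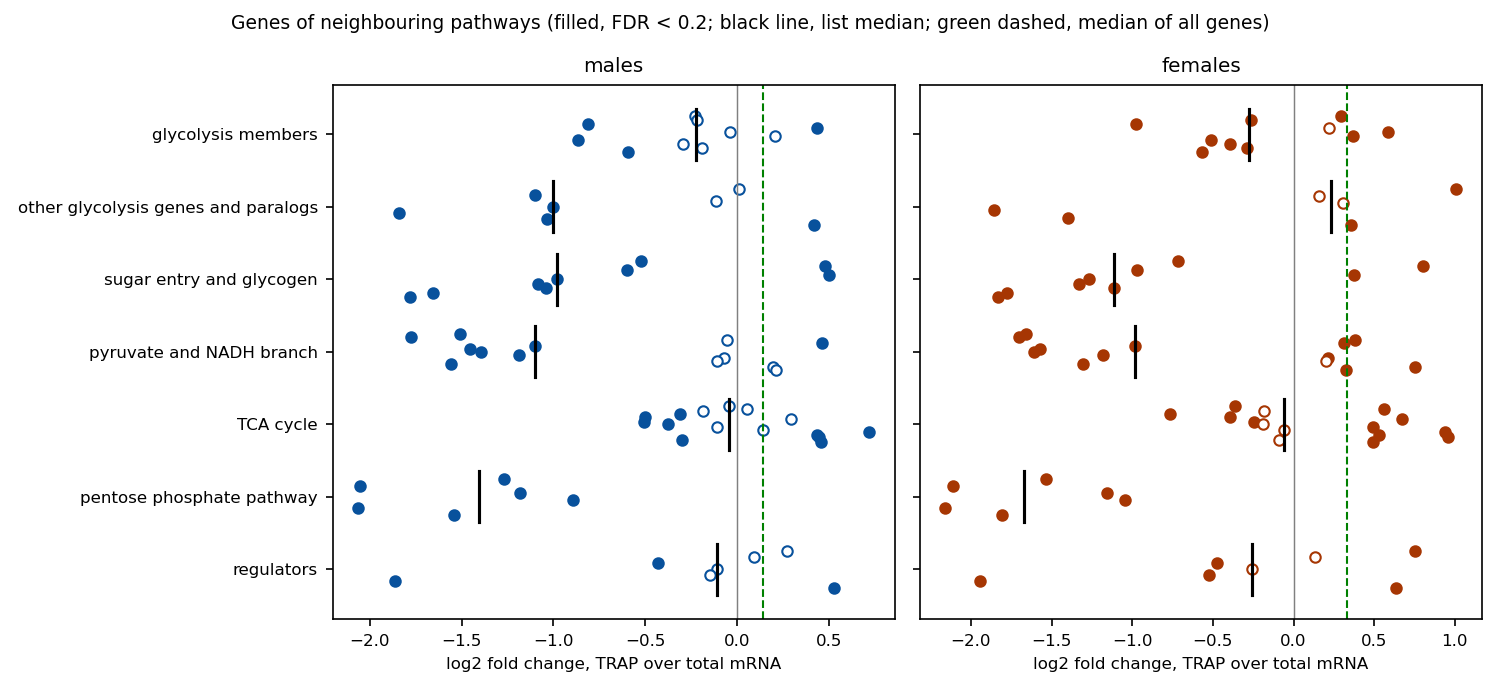
Log2 fold change of TRAP over total mRNA (x axis) for the representative exon of each listed gene, by list (y axis), for males and females, filled where the FDR is under 0.2, with the median of each list as a black line and that of all genes as a dashed line. All points of the pentose phosphate list lie below -0.8, and the glycolysis genes lie between -0.98 and 0.59.

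Within groups the 10 genes varied together to different degrees. After the group mean was taken from each library, Pearson's r over 45 pairs of genes and 16 libraries had a median of 0.56 and ran from -0.12 to 0.92, values that also hold what libraries share in depth and composition. Each gene was also set against the mean profile of the 10, which includes the gene itself. Eno followed this profile most closely (r = 0.90 within groups and 0.95 over all 16 libraries), and Hex-A least (0.46 and -0.05). The genes whose representative exons were most like the mean profile over 16 libraries, among 8969 compared, were Trx2 (r = 0.94), Tspo, CG1907, RpL24-like and Glo1 (0.93 to 0.94). Within groups they were mtTFB1, Ccdc56, UQCR-C1, AIMP2 and CG5989 (0.94 to 0.96). Of these, mtTFB1 and Ccdc56 had the same r (0.9623), and whether their exons share reads was not checked. These likenesses are descriptions over libraries of 4 groups.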

How the data were processed

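Poly(A) RNA was sequenced from a single end with a kit that does not mark strand, and the authors aligned the reads with STAR 2.7.2a to dm6, used SAMtools 1.2, and counted uniquely mapped reads per exon entry with featureCounts (version not given in the sources used here). The deposited values are raw counts. A second deposited table, of reads scaled to library size, was not used. Overlapping entries share reads, so totals of 15353672 to 25419045 are sums over entries, and 3 reads correspond to 0.118 to 0.195 CPM. The latter floor covers counting error only, while 95% intervals of fold changes are approximate, from the standard errors of the quasi-likelihood fit.

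Exons with a CPM above 2 in at least 60% of the 8 libraries compared were kept. TMM normalisation, the exact test and Benjamini-Hochberg adjustment over all exons were run with edgeR 4.0.16 (R 4.3.3), after the study's methods, with a threshold of FDR under 0.2. Exon usage was tested with diffSpliceDGE and the interaction with the quasi-likelihood test. The calculations were tested on simulated data. DESeq2 1.42.0, other scalings, filters, thresholds and each replicate left out served as alternatives. Shares were compared with exact permutation tests (scipy 1.17.1). Repeated entries with the same interval were counted once.

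Groups and replicate numbers came from the sample titles. The study describes the libraries of a condition as biological replicates. No pair of libraries within a group agreed within sampling noise. Same-numbered female TRAP and total mRNA libraries deviated together (r of 0.471, 0.253, 0.582 and 0.405). Female TRAP replicate 3 nevertheless correlated best with a total mRNA library of another number. This pairing was taken from the data and the titles, so the fit with the replicate number as a block is given where it changed a call. Same-numbered male libraries had r of -0.023, 0.104 and 0.228, and none correlated best with its own number. Male libraries and the sexes were not treated as paired.

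All 10 members were named. From each other list the 3 called genes with the largest absolute fold change were named in each TRAP comparison, and each member was described by its representative exon (of its tested exons, that with the most CPM on average) and, where exons differed, by those with the extreme fold changes. For likeness, the 5 genes with the highest Pearson r with the mean of log2(CPM + 1) over the centred members were named, before and after subtracting group means. Promoter motifs were not analysed here. Of 136 listed genes 130 were matched. Members and lists were chosen with earlier results of these data known.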

Additional observations from a re-analysis of the deposited data

Results flagged for a closer look

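Of 64 groups of 4 values examined (representative exons and shares), 4 held a library that stood apart from the others by Dixon's 95% criterion (the gap to its nearest neighbour over the whole range), which chance meets in about 1 of 20 groups. Hex-A stood at 417.303 CPM in male total mRNA replicate 3, above 294 to 309 in the other 3. Pfk stood at 76.557 CPM in female TRAP replicate 4, above 61.5 to 62.1. Pgk stood at 119.32 CPM in male total mRNA replicate 4, below 135 to 138. The Gapdh2 share of the Gapdh pair was 54.8203% in male TRAP replicate 5, below 68.7% to 70.1%, and this library also had the highest summed glia (360 CPM), photoreceptor (10550 CPM) and fat body markers (1724 CPM) of the 4 male TRAP libraries, whose part in the share was not tested.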

How the results depend on the processing

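Over alternatives, 1091 single-gene and single-exon values kept their side of the threshold, 71 lost a call, 44 gained one and 6 reversed. Direction was compared only where the main or the alternative fit made a call, so uncalled values could change sign without being counted. Scaled by library totals alone, the count of glycolysis intervals higher in male TRAP went from 3 to 7, higher in male than female total mRNA from 1 to 13 and lower from 6 to 0, and the interaction from 0 to 4. The female values of Eno and Pyk turned to 0.13 and 0.11, and Pyk between the sexes in total mRNA to 0.24. Over all exons, this scaling gave 15767 higher and 6932 lower in males (10397 and 9782 with TMM), 16388 and 7477 in females (12285 and 11136), and 14097 and 1835 in total mRNA of males against females (3160 and 3755). The interaction count over all exons under this scaling is not given here, so its 4 glycolysis intervals have no share beside them. By summed exons the female values turned to -0.089 for Pfk and -0.33 for Ald1, and in the longest coding exon that of Ald1 turned to -0.17. That alternative gave no value for Hex-A, Gapdh1, Gapdh2 and Eno, which have no fully coding exon tested.

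At FDR under 0.05 the counts were 0 higher in male TRAP, 6 higher in female TRAP, and 0 higher and 1 lower in male total mRNA against female. Over all exons, 7363 of 33155 were then higher in male TRAP and 10599 of 30192 in female TRAP. In total mRNA 938 were higher in males and 2129 lower, of 31125. With a change of at least 2-fold as well as FDR under 0.2 the glycolysis counts were 0 higher and 8 lower in male TRAP, 0 higher and 12 lower in female TRAP, and 0 and 0 in total mRNA. Over all exons this gave 2213 higher and 4562 lower of 33155 in males, and 4939 and 5993 of 30192 in females. In total mRNA it gave 88 and 571 of 31125. For total mRNA between the sexes, DESeq2 gave 13 glycolysis intervals lower, CPM above 2 in all libraries gave 10 lower, and the fit over 16 libraries gave 0 higher and 10 lower. Over all exons these gave 3993 lower of 31125, 3350 lower of 25651, and 1631 higher and 3028 lower of 31299. With the replicate number as a block, male exon usage calls went from 3 to 15 and total mRNA calls between the sexes to 3 higher and 14 lower, where the libraries share only a number, and no male library correlated best with its own number. Over all exons the block moved male usage calls from 179 higher and 666 lower to 648 and 2804, of 29415. Total mRNA calls between the sexes moved from 3160 and 3755 to 3874 and 3959, of 31125. The block changed no other count of glycolysis intervals by over 1.5 times. The causes were not tested.

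With each replicate left out in turn, the count higher in male TRAP ranged from 0 to 4 (0 without male total mRNA replicate 4 and without male TRAP replicate 2 or 4, 1 without male total mRNA replicate 2), the count lower from 29 to 33, and male usage from 2 to 9 (9 without male total mRNA replicate 3, 5 without male TRAP replicate 5). In females the count higher ranged from 5 to 10 and usage from 15 to 27 (5 and 15 without female TRAP replicate 4), and the count lower from 32 to 36. In total mRNA of males against females the count higher ranged from 0 to 3 (3 without male replicate 1, 0 without male replicate 2 or female replicate 3) and the count lower from 3 to 13 (12 and 3 without male replicates 1 and 2, 3 and 13 without female replicates 3 and 5). Counts for TRAP between the sexes and for the interaction were 0 throughout. Over all exons, those higher in male TRAP numbered 8753 of 31682 without male total mRNA replicate 4 and 10307 of 31647 without male TRAP replicate 5. Those lower numbered 8738 of 32035 without male total mRNA replicate 2 and 9886 of 32368 without replicate 3. In female TRAP 10993 of 28827 were lower without female TRAP replicate 2 and 10340 of 28831 without female total mRNA replicate 5. Male usage calls were 301 higher and 1788 lower of 28677 without male total mRNA replicate 3. Female usage calls were 497 and 2497 of 25600 without female TRAP replicate 4. Exons higher in female TRAP numbered 11374 of 29198 without that library and 11400 of 28827 without female TRAP replicate 2. In total mRNA of males against females, 4232 were higher and 4045 lower of 29864 without male replicate 1. Without male replicate 2 they were 1595 and 2578 of 29865. They were 1525 and 2906 of 30279 without female replicate 3, and 3398 and 3669 of 30340 without female replicate 5. Depth limits the alternative exons and the upstream exons of Pfk and Eno, which hold few reads.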
